A study of Mus musculus with 79 samples.

Results

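The genes of cholesterol synthesis, of the SREBP pathway that controls it and of the LXR pathway of sterol export were followed in mouse T helper 17 (Th17) cells. The module was set by gene name and not by a cut on measured values, but it was chosen with earlier results of these data known. Of the 29 genes listed, 28 had a row in the deposited table of 20465 genes: 18 enzymes of sterol synthesis, 6 SREBP pathway genes and 4 LXR and sterol transport genes. MSMO1 was not analysed here. T cells carrying the division dye CFSE were driven toward pathogenic Th17 cells (Th17p) by IL-6, IL-1b and IL-23 together, or toward non-pathogenic ones (Th17n) by TGFb and IL-6. Cultures of both types received 20 µM EGCG, epigallocatechin gallate, the main catechin of green tea, dissolved in DMSO, or 50 µM DHEA dissolved in methanol, and controls received DMSO or methanol alone. DHEA is read here as dehydroepiandrosterone, a steroid known to inhibit glucose-6-phosphate dehydrogenase. RNA came from the unsorted cells of each culture (Total) and from cells sorted after exactly 1 division (Div.1). Cell type, treatment and sort gave 16 groups, all of CFSE-labelled cells, with 5 libraries in each except the DMSO Div.1 groups of both cell types, which had 4. The labels describe 5 mice per condition but tie no library to a mouse, so the p-values measure the spread between these libraries. Libraries are named by group and by their column on the plate, given as the replicate number.

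Animal cells make cholesterol from acetyl-CoA through mevalonate, isoprenoid units, squalene and lanosterol. When sterol in the endoplasmic reticulum is low, SCAP carries the SREBP factors to the Golgi, where they are cut and released to activate the synthesis genes, and the INSIG proteins hold SCAP back when sterol is high. LXR receptors are activated by oxidised sterols and raise the export pumps ABCA1 and ABCG1 and the receptor-degrading ligase MYLIP. In dividing T cells this pathway supplies membrane.

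Promoters are shown first, because many of these genes moved together and the elements that SREBP and its partner NF-Y are known to bind can be read there. Promoters from 250 bases before to 50 bases after each annotated start were taken from RefSeq (GRCm38.p6) and matched 23 of the 28 members, with 31 starts. FDPS, FDFT1, SQLE and ABCG1 had no entry, and STARD4 was not searched. Motifs were searched on both strands. The sterol element TCACNCCAC lay in the promoter of 1 of 15 enzymes, HMGCS1 (6.67%), and in 1.33% of 8256 expressed genes with a promoter, counting a gene if any of its starts held the motif. The shorter CACNCCAC, contained in it, lay in 3 of 23 members (13%), namely HMGCS1, ACAT2 and INSIG1, and in 7.55% of expressed genes. The NF-Y box CCAAT lay in 14 of 15 enzymes (93.3%) against 43.5% of expressed genes, and the Sp1 box GGGCGG in 14 of 15 against 69.9%. The LXR element DR4, searched only as an exact spaced direct repeat of GGTCA, was found in 0 of 23 members and in 0.0484% of expressed genes. Looser forms of the repeat were not searched. The windows of ABCA1 and SREBF1 each hold a near match, which departs from the exact repeat in a letter and was not counted. The count therefore does not show that the members lack an LXR element. All these counts are matches of letters in short windows and no evidence of binding. The stretches below run 5′ to 3′ on the strand of the gene and lie before its RefSeq start, with the named motif in capitals as it reads on that strand (ATTGG for CCAAT). HMGCS1 (chr13:119690101-119690350, plus strand) is given over its 250 bases before the start with the sterol element, ACAT2 (chr17:12960751-12960926, minus strand) and INSIG1 (chr5:28071383-28071411, plus strand) with the shorter element. The INSIG1 stretch lies inside the longer mm10 gene model. LSS (chr10:76531525-76531565, plus strand), MVD (chr8:122443427-122443467, minus strand), NSDHL (chrX:72918394-72918434, plus strand) and HSD17B7 (chr1:169969256-169969296, minus strand) are given round 1 NF-Y box each that lies before the start, not always the nearest to it, because their changes are described below.
HMGCS1: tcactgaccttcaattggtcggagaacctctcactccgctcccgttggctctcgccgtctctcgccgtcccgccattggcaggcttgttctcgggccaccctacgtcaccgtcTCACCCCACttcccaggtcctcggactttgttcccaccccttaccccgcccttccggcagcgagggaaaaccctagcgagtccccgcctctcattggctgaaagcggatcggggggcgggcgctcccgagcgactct
ACAT2: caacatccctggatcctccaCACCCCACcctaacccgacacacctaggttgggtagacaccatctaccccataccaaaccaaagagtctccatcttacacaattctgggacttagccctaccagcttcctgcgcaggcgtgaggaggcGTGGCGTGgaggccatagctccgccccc
INSIG1: ggcgcggtacgtgtagtgtcGTGGCGTGt
LSS: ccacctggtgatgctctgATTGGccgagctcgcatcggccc
MVD: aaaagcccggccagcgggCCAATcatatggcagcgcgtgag
NSDHL: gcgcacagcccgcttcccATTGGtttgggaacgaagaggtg
HSD17B7: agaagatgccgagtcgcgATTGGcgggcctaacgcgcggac

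Levels are in TPM, a transcript abundance scaled for transcript length and library size. The deposited columns summed to between 880077 and 895017 TPM, and 9338 to 9845 genes per library reached 1 TPM. TPM keep no read counts, so the depth behind a value is unknown. The library of well A4, labelled Th17n DMSO Div.1 among wells of Th17p DMSO Div.1, was left out, which leaves 78 libraries. T cell markers were present in all of them: CD4 ran from 67.9 to 186 TPM and CD3E from 89.3 to 174. All 11 markers of CD8 T and NK cells were in the table, and their sum per library ran from 10.2 to 47.2 TPM, carried by CD8B1, NKG7 and KLRD1, with CD8A at most at 0.557 TPM and GZMA and GZMK at 0 in 75 of 78 libraries. Markers of B cells summed to between 0.360 and 5.61 TPM and those of myeloid cells to at most 2.05. Red cell and platelet markers were at most at 8.89 TPM except in 1 Th17n EGCG Total library at 29.8.

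All 28 members reached 1 TPM in at least 4 libraries and were tested. FDPS, which makes farnesyl diphosphate (chromosome 3, 89093588 to 89101959, minus strand, mm10), was the most abundant, with a mean of 359 TPM over all libraries. LBR, a sterol reductase of the nuclear membrane, had 136, CYP51, the lanosterol demethylase, 125 and SQLE, the squalene epoxidase, 102. HSD17B7, a ketoreductase of the late steps, was the lowest enzyme at 7.28 TPM. MYLIP averaged 1.36 TPM and ABCA1 0.388. ABCA1 reached 1 TPM in only 5 libraries and so entered the test only through the solvent-treated Th17p Total cells, where it is high. It had to differ in comparisons that use those libraries, so its values there are a description, with no p, and its place in the counts of members below supports nothing. All libraries but those 5 held it under 1 TPM, so its values in the other comparisons are given as a description as well. In mm10, exons of FDFT1, CYP51, LBR and SREBF1 overlap a gene on the other strand that is also in the table, and exons of TM7SF2 overlap VPS51 on the same strand. Whether counting used the strand is not given in the sources used here, so the levels of those 5 genes are less certain.

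The solvent-treated cells were compared first, to show how the module stood in each cell type without a compound. The enzymes of sterol synthesis were higher in Th17p than in Th17n cells, led by LSS, HMGCS1 and DHCR7, while the export pump gene ABCG1 was higher in Th17n. All changes are differences of log2(TPM + 1), tested over both solvents with limma and called at an adjusted p under 0.05 over 10672 genes. In Total cells 15 of 18 enzymes were higher in Th17p and 1 lower, and over all 28 members 18 were higher and 5 lower. Of all genes tested, 30.9% were higher and 26.5% lower. The median of the enzymes was 0.35, against 0.02 over all genes. The summed enzymes stood at 1830.2 ± 31.1 TPM in Th17p and 1509 ± 58.5 in Th17n cells with DMSO, and at 1882 ± 137 and 1410.1 ± 107 with methanol (SD, n = 5 each). In bulk samples such as these, fewer cells of a kind and less RNA per cell cannot be told apart.

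LSS, the cyclase that closes squalene epoxide into lanosterol (chromosome 10, 76531588 to 76557138, plus strand), was at 87.5, 84.01, 85.2, 84.2 and 82.3 TPM in the Th17p DMSO Total libraries and at 41.4, 45.3, 44.5, 42.2 and 41.7 in the Th17n ones. With methanol it was at 87.4, 97.4, 93.2, 106 and 100.5 against 39.4, 40.8, 46.7, 47.1 and 49.9. With either solvent all Th17p libraries lay well above all Th17n libraries (log2 fold change 1.03, SE 0.0578, adjusted p = 1.85e-25). HMGCS1, which makes HMG-CoA and carries the sterol element shown above (chromosome 13, 119690379 to 119708260, plus strand), was at 144, 125, 144, 131 and 122 TPM in Th17p and 72.2, 79.4, 72.6, 64.1 and 66.2 in Th17n cells with DMSO, again without overlap (log2 fold change 0.99, SE 0.0759, adjusted p = 1.05e-18). With methanol the means were 147 ± 20.4 and 69.4 ± 4.12 TPM. DHCR7, the last reductase of the pathway, also differed (log2 fold change 0.87, adjusted p = 1.03e-17), as did PMVK, the phosphomevalonate kinase, by 0.66 and IDI1, the isopentenyl diphosphate isomerase, by 0.49. EBP, the sterol isomerase, was the enzyme that was lower in Th17p cells (log2 fold change -0.25, adjusted p = 1.37e-10), and SC5D (-0.09) and TM7SF2, whose change was nearest to 0, did not pass the test. ABCG1 (chromosome 17, 31057675 to 31117988, plus strand) was at 5.79, 3.87, 3.81, 4.50 and 4.98 TPM in Th17p and 18.2, 14.5, 11.5, 16.1 and 16.5 in Th17n DMSO Total libraries. Every Th17n library lay above every Th17p library with each solvent (log2 fold change -1.53, SE 0.0847, adjusted p = 7.58e-26). ABCA1, the other pump, was higher in Th17p cells, at 0.935 ± 0.233 against 0.224 ± 0.0770 TPM with DMSO (log2 fold change 0.71).

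In Div.1 cells the same comparison gave 14 of 18 enzymes higher in Th17p and 1 lower, and 20 and 2 of 28 members, against 34.9% and 25.7% of all genes. The median over the enzymes was 0.47, against 0.04 over all genes. HMGCS1 (1.24), LSS (1.21), IDI1 (0.75) and DHCR7 (0.70) had the largest differences. EBP was again lower (-0.21). Of the SREBP pathway genes 5 of 6 were higher in Th17p Div.1 cells. STARD4, a sterol carrier of the cytosol, differed by 0.60, INSIG1 by 0.35 and SREBF2, which encodes the SREBP most tied to sterol synthesis, by 0.32. INSIG2 (0.15) and SREBF1 (0.13) also passed. The call of INSIG2 was lost when any 1 of 3 libraries was left out, most so without Th17p DMSO Div.1 replicate 5 (0.13, adjusted p = 0.068), and after rescaling, in a fit of the groups alone and with the well A4 library in its labelled group (adjusted p up to 0.123). That of SREBF1 was lost when any 1 of 7 libraries was left out, most so without Th17n Methanol Div.1 replicate 6 (0.10, adjusted p = 0.0766), and after rescaling (adjusted p = 0.141) and in a fit of the groups alone (adjusted p = 0.0613). ABCG1 differed by -1.40 and ABCA1 by 0.33.

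**Figure D1:**
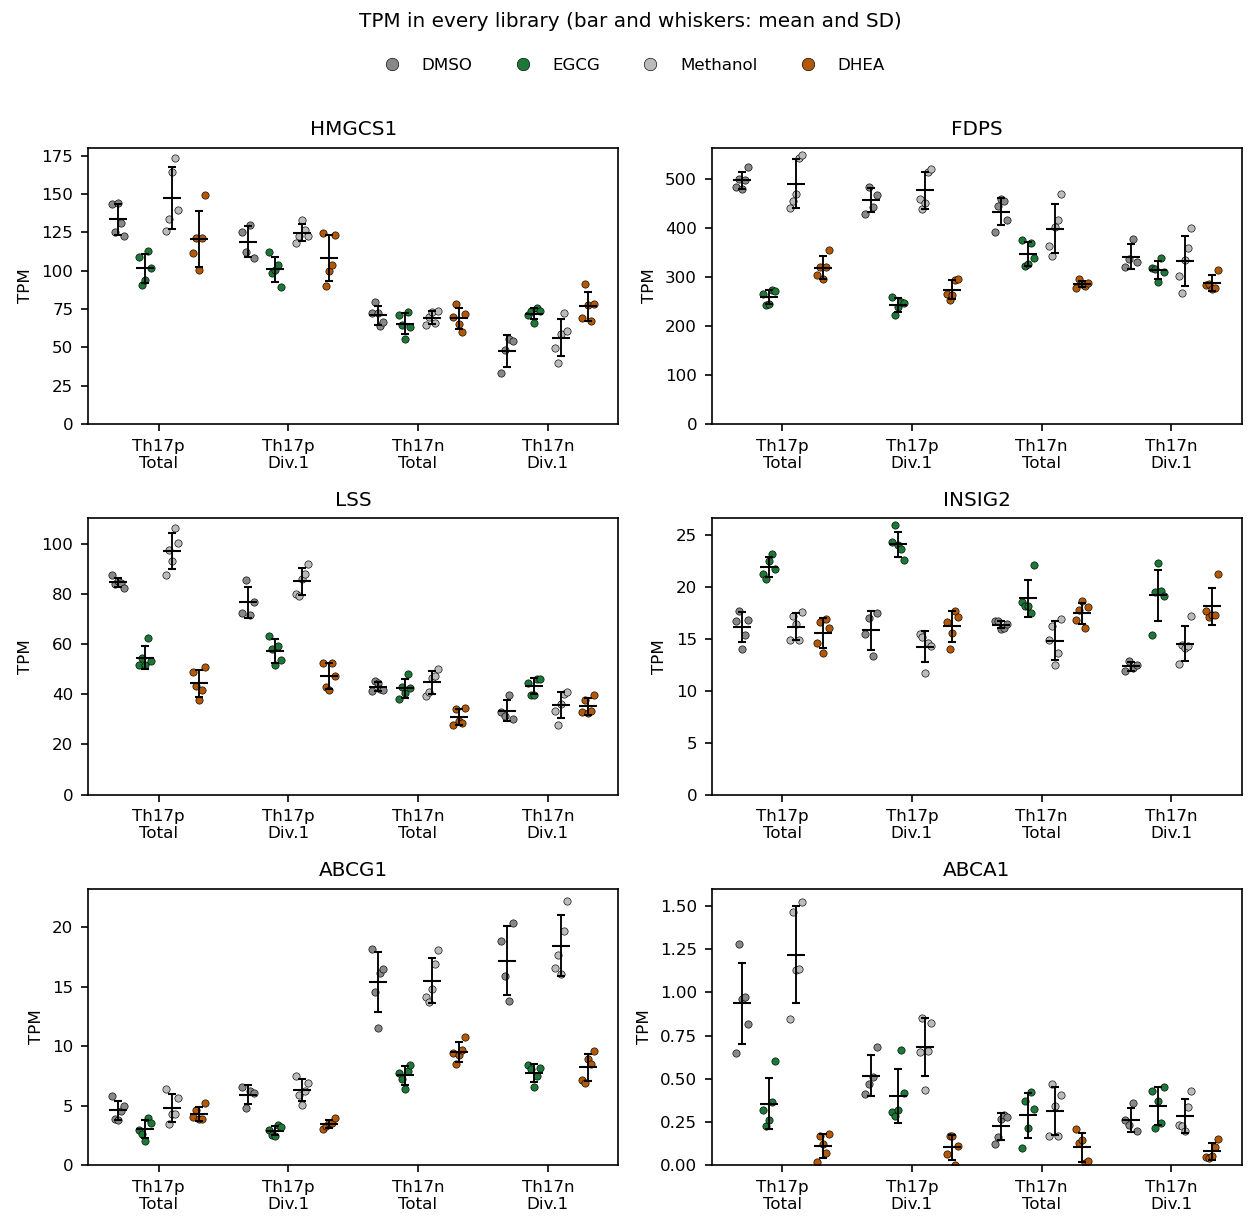
TPM (vertical axes, from 0) of 6 members in each of the 78 libraries, by cell type, sort and treatment; each point is a library and the bar and whiskers are the mean and SD of its group. HMGCS1 and LSS stand higher in Th17p than in Th17n cells with solvent, FDPS drops with both compounds in Th17p cells, and ABCG1 is highest in Th17n cells with solvent.

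Much of the synthesis pathway fell with EGCG in Th17p Total cells. Of the enzymes 0 of 18 rose and 13 fell, and over all 28 members 4 rose and 18 fell, where 30.1% of all genes rose and 14.9% fell. The enzyme median was -0.39, against 0.09 over all genes, and the summed enzymes went from 1830.2 ± 31.1 to 1269 ± 72.9 TPM (SD, n = 5 and 5). FDPS fell furthest: it was at 484, 501, 479, 498 and 524 TPM with DMSO and at 265, 243, 244, 273 and 272 with EGCG. All EGCG libraries lay far below all DMSO libraries (log2 fold change -0.94, SE 0.0701, adjusted p = 1.97e-18). ACAT2, the cytosolic thiolase that starts the pathway (chromosome 17, 12942890 to 12960747, minus strand), was at 144, 143, 142, 140.2 and 136 TPM with DMSO and 84.1, 79.5, 73.3, 103 and 86.7 with EGCG, with no overlap (log2 fold change -0.73, SE 0.0739, adjusted p = 4.34e-13). LSS was at 51.5, 54.3, 51.8, 62.3 and 53.3 TPM with EGCG, below each of its DMSO libraries given above (log2 fold change -0.62, SE 0.0818, adjusted p = 1.86e-09). MVD, which decarboxylates mevalonate diphosphate, went from 72.9 ± 3.16 to 46.02 ± 3.58 TPM (log2 fold change -0.65, SE 0.0784, adjusted p = 1.31e-10). NSDHL, a C4 decarboxylase of the late steps, fell by 0.62 on the log2 scale and PMVK by 0.59. MVK (0.02), IDI1 (-0.27), FDFT1 (-0.12), CYP51 (0.02) and HSD17B7 (0.09) did not pass the test, while the genes that fell came from the start, middle and end of the pathway. The other enzymes that fell were LBR (-0.44), SQLE (-0.42), DHCR7 (-0.39), HMGCS1 (-0.39), TM7SF2 (-0.37), EBP (-0.30) and SC5D (-0.29). The sum over CD8 T and NK markers was 13.1 ± 2.07 TPM with DMSO and 27.9 ± 5.35 with EGCG, and their part in the result was not tested.

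In Th17p Div.1 cells, which had all divided once, 9 of 18 enzymes fell with EGCG and 2 rose, and 11 and 3 of 28 members, against 11.9% and 33.7% of all genes. The enzymes had a median change of -0.23, against 0.12 over all genes. Rescaling by the median ratio shifted the all-gene median by -0.103, and 17 members then fell and 1 rose. FDPS was at 429.6, 484, 443 and 468 TPM with DMSO (n = 4) and 259, 223, 238, 249 and 246 with EGCG. The fall was about as large as in Total cells and the groups did not overlap (log2 fold change -0.91, SE 0.0744, adjusted p = 1.34e-16). MVD (log2 fold change -0.53, adjusted p = 2.6e-07), NSDHL (-0.49), LSS (-0.42) and ACAT2 (-0.37) fell as well. CYP51 and HSD17B7 rose, by 0.22 and 0.32. The call of CYP51 was lost after rescaling (adjusted p = 0.162), and that of HSD17B7 when any 1 of 5 libraries was left out, most so without Th17p DMSO Div.1 replicate 1 (0.27, adjusted p = 0.114), and without the filter, after rescaling and without plate columns 1 and 10 (adjusted p up to 0.21). HMGCS1 was at 125, 112, 129.6 and 108 TPM with DMSO and 112, 98.7, 100.4, 104 and 89.6 with EGCG, and with that overlap did not pass (log2 fold change -0.23, adjusted p = 0.0877). The other enzymes that fell were LBR (-0.29), SQLE (-0.26), EBP (-0.24) and PMVK (-0.23). The call of PMVK was lost when any 1 of 5 libraries was left out, most so without Th17p DMSO Div.1 replicate 5 (-0.18, adjusted p = 0.134), and without the filter (adjusted p = 0.0607) and with the well A4 library in its labelled group (adjusted p = 0.0684). The sum over CD8 T and NK markers was 17.6 ± 2.80 TPM with DMSO and 30.99 ± 3.87 with EGCG, a difference whose part was not tested.

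Much of the pathway also fell with DHEA in Th17p Total cells, here with LSS in the lead. Of the enzymes 0 of 18 rose and 14 fell, and over all 28 members 2 rose and 18 fell, against 20.9% and 26.8% of all genes. The median over the enzymes was -0.46, against -0.02 over all genes, and the summed enzymes went from 1882 ± 137 with methanol to 1298 ± 87.96 TPM with DHEA (SD, n = 5 and 5). LSS fell furthest, from 87.4, 97.4, 93.2, 106 and 100.5 TPM with methanol to 48.7, 43.3, 37.7, 41.6 and 50.95 with DHEA. Every DHEA library lay under every methanol library (log2 fold change -1.11, SE 0.0818, adjusted p = 1.04e-18). ACAT2 was at 128, 139.5, 133, 153 and 134 TPM with methanol and 73.3, 68.1, 64.8, 69.7 and 83.3 with DHEA, again without overlap (log2 fold change -0.93, SE 0.0739, adjusted p = 3.44e-17). MVD (log2 fold change -0.79, adjusted p = 1.59e-13), PMVK (-0.79), DHCR7 (-0.71), NSDHL (-0.62) and FDPS (-0.62) followed. HSD17B7 and CYP51, which did not pass with EGCG in these cells, fell with DHEA by 0.50 and 0.42 on the log2 scale. HMGCS1 fell from 147 ± 20.4 to 121 ± 18.1 TPM (log2 fold change -0.29, adjusted p = 0.0225). Its call was lost when any 1 of 4 libraries was left out, most so without Th17p DHEA Total replicate 8 (-0.22, adjusted p = 0.1), and in a fit of the groups alone (adjusted p = 0.0522) and with the well A4 library in its labelled group (adjusted p = 0.0727). The other enzymes that fell were SC5D (-0.52), SQLE (-0.34), EBP (-0.31) and LBR (-0.23). MVK (-0.17), IDI1 (-0.25), FDFT1 (-0.20) and TM7SF2 (-0.24) did not pass. The sum over CD8 T and NK markers was 17.7 ± 3.81 TPM with methanol and 29.2 ± 3.86 with DHEA, and B cell markers to 0.755 ± 0.281 and 2.002 ± 0.586. Their part in the result was not tested.

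In Th17p Div.1 cells 13 of 18 enzymes fell with DHEA and 0 rose, and 17 and 0 of 28 members, against 19.2% and 18.1% of all genes. The enzyme median was -0.35, against 0.00 over all genes. LSS was at 80.002, 79.04, 86.05, 87.9 and 92.003 TPM with methanol and 52.5, 42.8, 41.7, 52.4 and 47.3 with DHEA (log2 fold change -0.84, SE 0.0818, adjusted p = 4.97e-13). FDPS went from 477 ± 37.9 to 274 ± 19.04 TPM (log2 fold change -0.79, adjusted p = 9.65e-15). For both genes each DHEA library lay below each methanol library. MVD (-0.76), ACAT2 (-0.75), NSDHL (-0.72), PMVK (-0.71) and DHCR7 (-0.60) fell too. HMGCS1 (-0.21), SQLE (-0.14), IDI1 (-0.05), HSD17B7 (-0.18) and LBR (-0.02) did not pass. The other enzymes that fell were SC5D (-0.39), TM7SF2 (-0.37), MVK (-0.33), EBP (-0.30), CYP51 (-0.29) and FDFT1 (-0.23). The call of TM7SF2 was lost when any 1 of 2 libraries was left out, most so without Th17p Methanol Div.1 replicate 9 (-0.26, adjusted p = 0.0997), and in a fit of the groups alone (adjusted p = 0.0956). The call of MVK was lost without plate columns 1 and 10 (adjusted p = 0.0638). The call of FDFT1 was lost when any 1 of 7 libraries was left out, most so without Th17p Methanol Div.1 replicate 10 (-0.17, adjusted p = 0.197), and without the filter, in a fit of the groups alone and without plate columns 1 and 10 (adjusted p up to 0.186). After rescaling 18 members fell and 2 rose. CD8 T and NK markers added up to 21.97 ± 5.90 TPM with methanol and 29.7 ± 5.82 with DHEA, and their part was not tested.

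**Figure D2:**
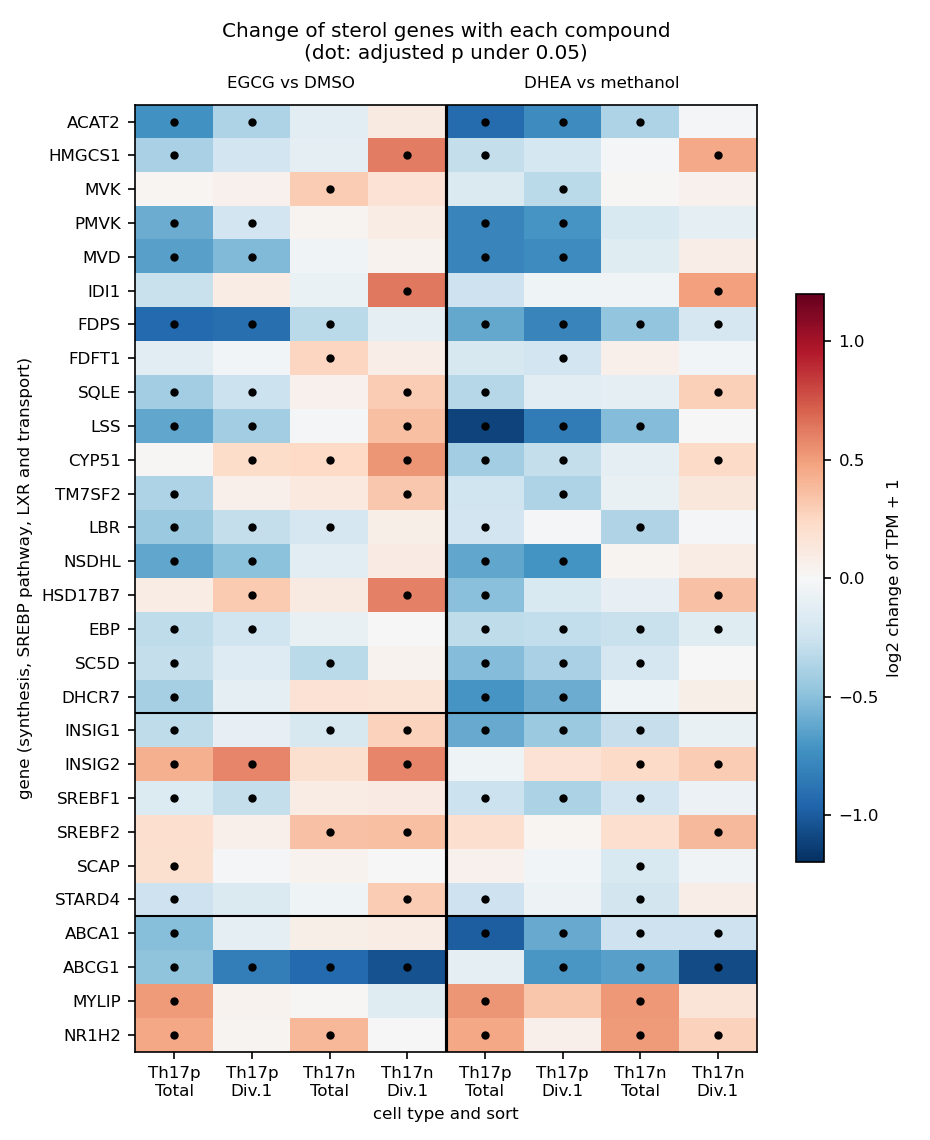
Log2 change of TPM + 1 (colour, blue lower and red higher with compound) of 28 members (rows) in the 8 comparisons of a compound with its solvent (columns); dots mark adjusted p under 0.05. The Th17p columns are mostly blue among the 18 enzymes in the upper block, while several enzymes are red in the Th17n Div.1 columns.

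In Th17n Total cells enzymes moved in both directions with EGCG: 3 of 18 rose and 3 fell. Over all 28 members 5 rose and 5 fell, or 3 and 7 after rescaling, against 21.7% and 13.5% of all genes, shares close to those of the members. The enzymes had a median change of -0.03, against 0.05 over all genes. FDPS was at 393, 446, 458, 456 and 416 TPM with DMSO and 376, 323, 327, 368 and 339 with EGCG. The EGCG libraries were all lower, by less than in Th17p cells (log2 fold change -0.32, SE 0.0701, adjusted p = 0.000195). SC5D, the lathosterol desaturase, fell as well (log2 fold change -0.32, adjusted p = 0.000117), as did LBR (-0.20), whose call was lost in a fit of the groups alone (adjusted p = 0.0747). MVK rose by 0.31 and CYP51 by 0.24, and FDFT1, the squalene synthase, by 0.25. The call of FDFT1 was lost when any 1 of 4 libraries was left out, most so without Th17n EGCG Total replicate 5 (0.23, adjusted p = 0.0719), and without the filter (adjusted p = 0.0541) and after rescaling (adjusted p = 0.0631). LSS (-0.03), MVD (-0.04) and PMVK (0.03) did not pass here. With DMSO the CD8 T and NK markers added up to 17.98 ± 3.75 TPM and with EGCG to 18.8 ± 3.90.

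In Th17n Div.1 cells 7 of 18 enzymes rose with EGCG and 0 fell, and 11 and 1 of 28 members, against 28.1% and 6.77% of all genes. Rescaling moved the median of all genes by -0.112 here, and 7 members then rose and 5 fell. The median over the enzymes was 0.14, against 0.11 over all genes. These shares and medians are not far from those of all genes, and the members that led are given by name. HMGCS1 was at 33.1, 48.03, 55.6 and 54.04 TPM with DMSO (n = 4) and 71.2, 73.6, 65.9, 75.98 and 73.8 with EGCG. Each EGCG library lay above each DMSO library, and the lowest DMSO library was replicate 1 (log2 fold change 0.61, SE 0.114, adjusted p = 1.39e-05). IDI1 went from 18.6, 23.3, 19.8 and 16.6 TPM to 30.9, 27.2, 37.4, 33.6 and 25.95, also without overlap (log2 fold change 0.63, SE 0.125, adjusted p = 4.01e-05). HSD17B7 rose by 0.60, CYP51 by 0.53, LSS by 0.36, TM7SF2 by 0.33 and SQLE by 0.31. The call of TM7SF2 was lost when any 1 of 5 libraries was left out, most so without Th17n DMSO Div.1 replicate 1 (0.22, adjusted p = 0.233), and without the filter, after rescaling, with the well A4 library in its labelled group and without plate columns 1 and 10 (adjusted p up to 0.224). The call of LSS was lost with the well A4 library in its labelled group (adjusted p = 0.622). FDPS (-0.12), MVD (0.04), ACAT2 (0.11) and NSDHL (0.10), which had fallen in Th17p cells, did not pass. With DMSO the CD8 T and NK markers added up to 23.6 ± 5.30 TPM and with EGCG to 19.3 ± 2.87.

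With DHEA in Th17n Total cells 6 of 18 enzymes fell and 0 rose, and 12 and 3 of 28 members, against 25.3% and 20.8% of all genes. The enzyme median was -0.12, against -0.01 over all genes. LSS fell from 39.4, 40.8, 46.7, 47.1 and 49.9 TPM with methanol to 27.9, 34.1, 29.3, 28.6 and 34.6 with DHEA (log2 fold change -0.52, SE 0.0818, adjusted p = 2.04e-07). FDPS fell from 399 ± 49.3 to 286 ± 6.75 TPM (log2 fold change -0.47, adjusted p = 5.81e-08). Both genes were lower in every DHEA library than in every methanol library. ACAT2 (-0.37), LBR (-0.36), EBP (-0.26) and SC5D (-0.20) were the other enzymes that fell. HMGCS1 had means of 69.4 ± 4.12 and 68.9 ± 6.88 TPM (log2 fold change -0.01, adjusted p = 0.941). The sum over CD8 T and NK markers was 22.6 ± 3.28 TPM with methanol and 42.9 ± 5.79 with DHEA, and B cell markers to 1.59 ± 0.368 and 4.06 ± 1.28. Their part was not tested.

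In Th17n Div.1 cells 5 of 18 enzymes rose with DHEA and 2 fell, and 8 and 4 of 28 members, against 22.1% and 14.6% of all genes. The enzyme median of 0.06 was close to that of all genes, 0.05. In a fit of these groups alone 7 members passed in place of 12. HMGCS1 was at 49.9, 40.1, 59.04, 72.1 and 60.8 TPM with methanol and 69.4, 91.4, 77.9, 67.3 and 78.02 with DHEA (log2 fold change 0.46, SE 0.107, adjusted p = 0.00044). The highest methanol library lay inside the range of the DHEA libraries. IDI1 (0.50), SQLE (0.29), CYP51 (0.23) and HSD17B7 (0.35) rose as they had with EGCG. The call of CYP51 was lost in a fit of the groups alone (adjusted p = 0.0808), and that of HSD17B7 without Th17n Methanol Div.1 replicate 7 (0.23, adjusted p = 0.131), and in a fit of the groups alone (adjusted p = 0.11). LSS had nearly the same mean in both groups, 35.6 ± 5.30 and 35.2 ± 3.32 TPM (log2 fold change -0.01, adjusted p = 0.95). EBP (-0.14) and FDPS (-0.20) fell. The call of EBP was lost in a fit of the groups alone (adjusted p = 0.0709), and that of FDPS when any 1 of 3 libraries was left out, most so without Th17n Methanol Div.1 replicate 10 (-0.13, adjusted p = 0.156), and in a fit of the groups alone (adjusted p = 0.139) and without plate columns 1 and 10 (adjusted p = 0.0512). CD8 T and NK markers added up to 26.2 ± 6.58 TPM with methanol and 39.7 ± 5.66 with DHEA. B cell markers added up to 1.65 ± 0.423 and 3.87 ± 0.427 TPM. Their part was not tested.

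**Figure D3:**
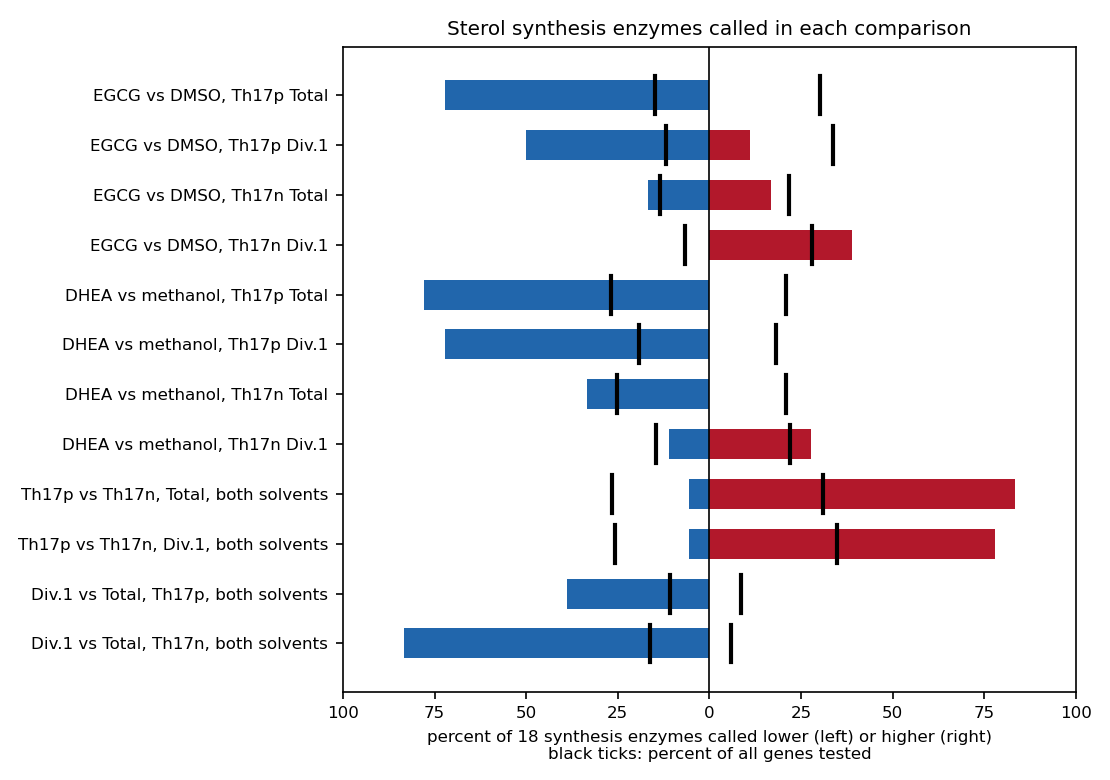
Percent of the 18 synthesis enzymes called lower (blue, left) or higher (red, right) in 12 comparisons, with black ticks at the percent of all 10672 genes called in that direction. Enzymes called lower exceed the ticks in all 4 Th17p compound comparisons, and enzymes called higher exceed them where Th17p is set against Th17n.

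Whether the response differed between the cell types was tested directly, as the change in Th17p minus the change in Th17n. With EGCG, 14 of 28 members changed more toward lower values in Th17p than in Th17n Total cells and 0 the other way, against 7.55% and 12.4% of all genes. In Div.1 cells it was 14 and 0, against 8.38% and 9.12%. Enzymes made up 12 of the former and 11 of the latter. With DHEA the counts were 10 and 2 in Total cells, against 6.73% and 8.06% of all genes, and 18 and 0 in Div.1 cells, against 9.39% and 6.49%. Enzymes made up 8 and 14 of the lower ones. In Total cells with EGCG the differences were largest for PMVK (log2 difference -0.63, adjusted p = 7.63e-05), MVD (log2 difference -0.62, adjusted p = 2.39e-05) and FDPS (log2 difference -0.61, adjusted p = 3.17e-06). In Div.1 cells they were largest for HMGCS1 (log2 difference -0.85, adjusted p = 6.5e-05), FDPS (log2 difference -0.79, adjusted p = 4.99e-08) and LSS (log2 difference -0.78, adjusted p = 2.05e-06). HMGCS1 and LSS were among those where EGCG raised the level in Th17n and the change in Th17p was negative. With DHEA the Total cells differed most in DHCR7 (log2 difference -0.66, adjusted p = 0.000363) and NSDHL (log2 difference -0.66, adjusted p = 4.69e-05), while ABCA1 had a difference of -0.74 that rests on its high solvent libraries. The Div.1 cells differed most in MVD (log2 difference -0.83, adjusted p = 1.02e-07), LSS (log2 difference -0.83, adjusted p = 3.65e-07) and NSDHL (log2 difference -0.81, adjusted p = 1.46e-06). ABCG1 and SCAP went the other way in Total cells with DHEA (log2 difference 0.54, adjusted p = 0.0202 and log2 difference 0.24, adjusted p = 0.029). The call of ABCG1 was lost without Th17p Methanol Total replicate 7 (0.45, adjusted p = 0.0684), and with the well A4 library in its labelled group (adjusted p = 0.083), and that of SCAP when any 1 of 8 libraries was left out, most so without Th17n Methanol Total replicate 10 (0.20, adjusted p = 0.0748). These differences share the solvent libraries with the comparison of the cell types, in which most enzymes were higher in Th17p. With EGCG the summed enzymes were 1269 ± 72.9 TPM in Th17p and 1393 ± 91.5 in Th17n Total cells, and with DHEA 1298 ± 87.96 and 1169.8 ± 44.8.

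**Figure D4:**
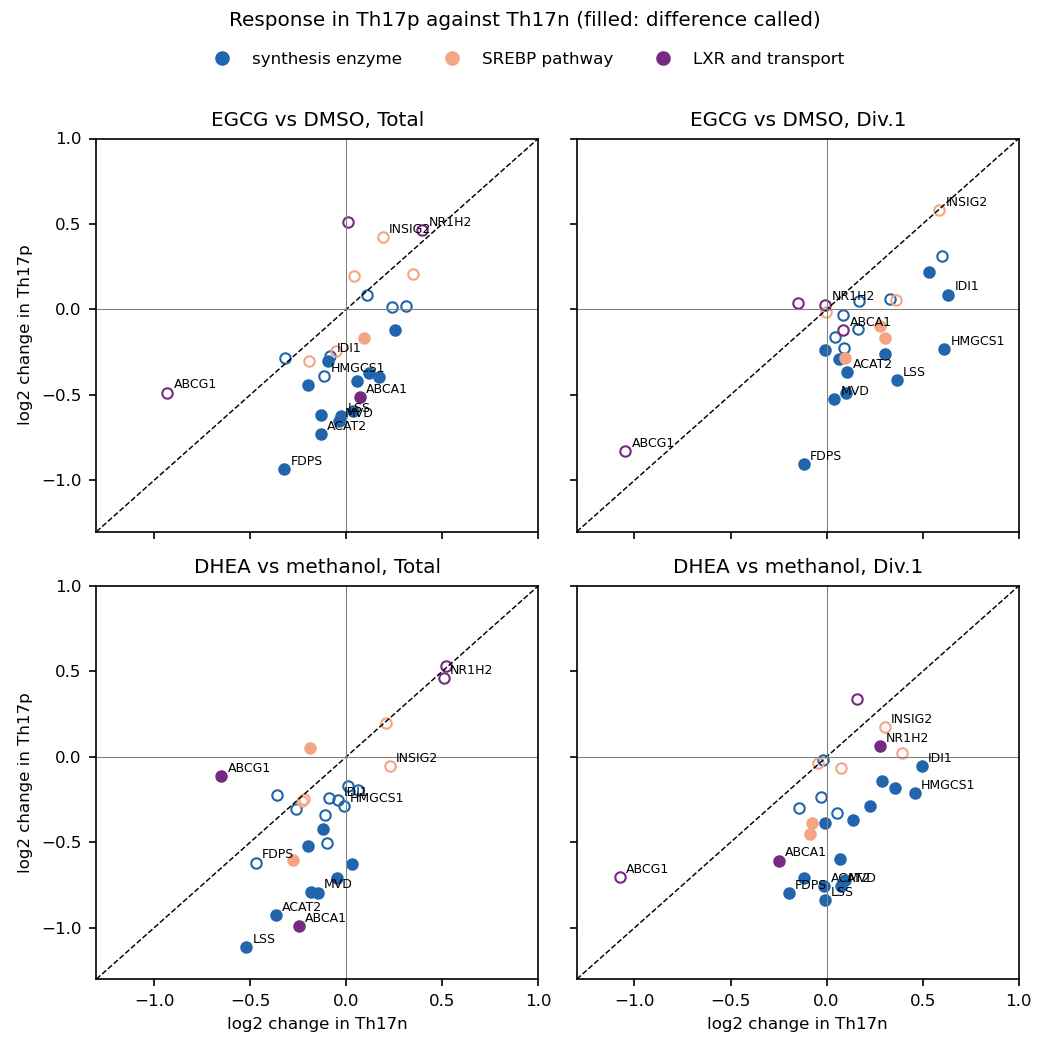
Log2 change of each of 28 members with a compound in Th17n (horizontal) and Th17p (vertical) cells, by compound and sort; colour gives the role and filled points are members whose change differed between the cell types (adjusted p under 0.05). Most filled points lie below the dashed line of equal change, and ABCG1 lies at the far left in all 4 panels.

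The SREBP pathway genes did not move as one. INSIG1 (chromosome 5, 28071363 to 28078662, plus strand), itself a target of SREBP, fell in 5 of the 8 comparisons of a compound with its solvent and rose in 1. INSIG2 (chromosome 1, 121304353 to 121332589, minus strand), which encodes the other retention protein, rose in 5 and fell in 0. INSIG1 was at 101, 109, 112, 113 and 102 TPM in Th17p Total cells with methanol and 69.2, 67.7, 66.2, 67.5 and 81.3 with DHEA. All DHEA libraries were lower (log2 fold change -0.60, SE 0.0665, adjusted p = 7.3e-12), and in Div.1 cells the change was -0.45. With EGCG it fell by 0.30 on the log2 scale in Th17p Total cells, and in Th17n Div.1 cells it rose by 0.28. The call of that rise was lost after rescaling (adjusted p = 0.0814). The fall with EGCG in Th17n Total cells (-0.19) was lost when any 1 of 3 libraries was left out, most so without Th17n EGCG Total replicate 3 (-0.17, adjusted p = 0.0571), and in a fit of the groups alone (adjusted p = 0.054) and without plate columns 1 and 10 (adjusted p = 0.0521). INSIG2 was at 15.5, 16.97, 13.4 and 17.5 TPM in Th17p Div.1 cells with DMSO (n = 4) and 24.3, 25.9, 24.02, 23.6 and 22.6 with EGCG. The groups did not overlap (log2 fold change 0.58, SE 0.0838, adjusted p = 2.71e-08). In Th17n Div.1 cells it was at 11.9, 12.9, 12.1 and 12.4 TPM with DMSO (n = 4) and 15.4, 19.5, 22.3, 19.6 and 19.1 with EGCG, again apart (log2 fold change 0.59, SE 0.0838, adjusted p = 4.76e-08). The rise in Th17p Total cells was 0.42. With DHEA INSIG2 rose in Th17n Div.1 cells (0.30) and in Th17n Total cells (0.23), where the call was lost without Th17n Methanol Total replicate 8 (0.17, adjusted p = 0.0868). In Th17p cells with DHEA it did not pass (-0.05 in Total and 0.18 in Div.1).

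SREBF1, which encodes the SREBP more tied to fatty acid synthesis, fell in 5 of 8 comparisons, by most in Th17p Div.1 cells with DHEA, from 55.1 ± 4.12 to 42.004 ± 3.86 TPM (log2 fold change -0.38, adjusted p = 4.92e-06). With EGCG in Th17p Div.1 cells it fell from 57.99 ± 2.77 (n = 4) to 47.4 ± 2.43 TPM (log2 fold change -0.28, adjusted p = 0.000812). The fall with EGCG in Th17p Total cells (-0.17) was lost when any 1 of 4 libraries was left out, most so without Th17p DMSO Total replicate 1 (-0.12, adjusted p = 0.163), and without the filter (adjusted p = 0.0648) and without plate columns 1 and 10 (adjusted p = 0.0951). SREBF2 fell in 0 comparisons and rose in 3, all in Th17n cells. In Th17n Div.1 cells with EGCG it went from 27.2 ± 3.05 (n = 4) to 35.5 ± 6.78 TPM (log2 fold change 0.36, adjusted p = 0.0444), and the call was lost when any 1 of 6 libraries was left out, most so without Th17n EGCG Div.1 replicate 5 (0.27, adjusted p = 0.166), and without the filter, after rescaling, in a fit of the groups alone and without plate columns 1 and 10 (adjusted p up to 0.208). The rise with EGCG in Th17n Total cells (0.35) was lost when any 1 of 6 libraries was left out, most so without Th17n DMSO Total replicate 4 (0.25, adjusted p = 0.169), and without the filter, after rescaling, in a fit of the groups alone and without plate columns 1 and 10 (adjusted p up to 0.0667). The rise with DHEA in Th17n Div.1 cells (0.39) was lost when any 1 of 5 libraries was left out, most so without Th17n Methanol Div.1 replicate 6 (0.32, adjusted p = 0.0788). All 3 are thus near the threshold. SCAP stayed between group means of 39.3 and 45.4 TPM over the 16 groups, a ratio of 1.16 that was the smallest of the module. It rose with EGCG in Th17p Total cells (log2 fold change 0.19, adjusted p = 0.00293) and fell with DHEA in Th17n Total cells (log2 fold change -0.19, adjusted p = 0.00384). STARD4 fell in 3 comparisons and rose in 1, and all 4 calls were close to the threshold. It fell by 0.25 on the log2 scale with DHEA in Th17p Total cells, where the call was lost when any 1 of 2 libraries was left out, most so without Th17p Methanol Total replicate 9 (-0.20, adjusted p = 0.0875). The fall with DHEA in Th17n Total cells (-0.22) was lost when any 1 of 6 libraries was left out, most so without Th17n DHEA Total replicate 9 (-0.16, adjusted p = 0.166), and without the filter, after rescaling, in a fit of the groups alone, with the well A4 library in its labelled group and without plate columns 1 and 10 (adjusted p up to 0.0748). The fall with EGCG in Th17p Total cells (-0.25) was lost when any 1 of 3 libraries was left out, most so without Th17p EGCG Total replicate 4 (-0.21, adjusted p = 0.0716). STARD4 rose by 0.31 with EGCG in Th17n Div.1 cells, and the call was lost without Th17n DMSO Div.1 replicate 1 (0.26, adjusted p = 0.0544), and after rescaling, with the well A4 library in its labelled group and without plate columns 1 and 10 (adjusted p up to 0.118).

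The 4 LXR and sterol transport genes split. ABCG1 fell in most comparisons of a compound with its solvent, and NR1H2, which encodes LXRβ, rose in all 4 of Total cells. ABCA1 fell in 5 of the 8 comparisons, and MYLIP rose in 3. ABCG1 fell in 7 of 8 comparisons, in both cell types. In Th17n Total cells EGCG took it from the DMSO values given above to 7.75, 7.22, 6.35, 7.93 and 8.37 TPM (log2 fold change -0.93, SE 0.120, adjusted p = 3.75e-09). In Th17n Div.1 cells it was at 18.8, 15.9, 13.8 and 20.3 TPM with DMSO (n = 4) and 8.43, 8.04, 6.57, 7.52 and 8.13 with EGCG (log2 fold change -1.05, SE 0.127, adjusted p = 4.98e-10). With DHEA it was at 16.6, 17.7, 16.02, 19.7 and 22.2 TPM in Th17n Div.1 cells with methanol and 7.17, 6.93, 8.95, 8.48 and 9.55 with the compound (log2 fold change -1.08, SE 0.120, adjusted p = 3.16e-11). In each of these pairs, and in Th17n Total cells with DHEA (-0.65), no compound library reached a solvent library. In Th17p cells, where its level was lower, it fell with EGCG by 0.49 on the log2 scale in Total and 0.83 in Div.1 cells. With DHEA it fell by 0.70 in Div.1 cells and did not pass in Total cells (-0.11). ABCA1 (chromosome 4, 53030787 to 53159895, minus strand) was at 0.844, 1.46, 1.13, 1.13 and 1.53 TPM in Th17p Total cells with methanol and 0.0176, 0.169, 0.122, 0.0689 and 0.182 with DHEA (log2 fold change -0.99). In Div.1 cells it was at 0.652, 0.850, 0.435, 0.658 and 0.825 and 0.0657, 0.170, 0.170, 0 and 0.111 TPM (log2 fold change -0.61). In both sorts the DHEA libraries lay near 0 and below all methanol libraries. At such levels the pseudocount of 1 makes the log2 change understate the change in TPM. With EGCG ABCA1 was also lower in Th17p Total cells, from 0.935 ± 0.233 to 0.355 ± 0.149 TPM (log2 fold change -0.51), and did not pass in Div.1 cells (-0.12) or in Th17n cells (0.07 and 0.09). With DHEA it also fell in Th17n cells, from a lower level (-0.25 in Total and -0.25 in Div.1). The call in Total cells was lost when any 1 of 4 libraries was left out, most so without Th17n Methanol Total replicate 7 (-0.20). That in Div.1 cells was lost without Th17n Methanol Div.1 replicate 10 (-0.21). Both were also lost in a fit of the groups alone and without plate columns 1 and 10.

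NR1H2 (chromosome 7, 44549616 to 44553951, minus strand) rose in all 4 comparisons of Total cells. In Th17p it was at 41.4, 41.2, 41.4, 37.9 and 46.5 TPM with DMSO and 52.3, 56.9, 59.97, 53.5 and 66.8 with EGCG (log2 fold change 0.46, SE 0.0528, adjusted p = 2.9e-11), and rose by 0.46 with DHEA. In Th17n it rose by 0.40 with EGCG and 0.51 with DHEA. In each of the 4 the compound libraries lay above the solvent libraries. In Div.1 cells NR1H2 rose only with DHEA in Th17n (log2 fold change 0.28, adjusted p = 1.97e-05), with changes of 0.03, -0.01 and 0.06 in the other 3 comparisons. The difference between the sorts was itself called with EGCG in Th17p (log2 difference -0.43, adjusted p = 0.000211) and Th17n (log2 difference -0.40, adjusted p = 0.000159) and with DHEA in Th17p (log2 difference -0.40, adjusted p = 0.000191). With DHEA in Th17n the difference was -0.23, a call lost when any 1 of 13 libraries was left out, most so without Th17n DHEA Div.1 replicate 7 (-0.21, adjusted p = 0.103), and without the filter, in a fit of the groups alone, with the well A4 library in its labelled group and without plate columns 1 and 10 (adjusted p up to 0.122). MYLIP rose in Th17p Total cells from 0.794 ± 0.267 to 1.55 ± 0.267 TPM with EGCG (log2 fold change 0.51, adjusted p = 0.00211) and from 0.937 ± 0.266 to 1.82 ± 0.523 with DHEA (log2 fold change 0.53, adjusted p = 0.00129). It rose from 1.17 ± 0.0841 to 2.16 ± 0.576 TPM with DHEA in Th17n Total cells (log2 fold change 0.52, adjusted p = 0.00182). With EGCG in Th17n Total cells it did not pass (0.01), nor in any comparison of Div.1 cells.

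Without a compound, the sorted cells that had divided once carried less of the pathway than the unsorted cells. Only the Div.1 cells were sorted, so handling in the sort and having divided once cannot be told apart. Libraries of both sorts that share a plate column were fitted unpaired. In Th17n 15 of 18 enzymes were lower in Div.1 and 0 higher, and 18 and 1 of 28 members, against 16.1% and 5.8% of all genes. In Th17p it was 7 and 0 enzymes and 9 and 3 members, against 10.8% and 8.63%. In Th17n the calls of HSD17B7 and NSDHL were lost when any 1 of 10 and of 8 libraries was left out, among other settings. That of PMVK was lost without Th17n DMSO Div.1 replicate 1, and that of EBP after rescaling. In Th17p the call of LSS was lost when any 1 of 11 libraries was left out. Those of DHCR7 and SQLE were lost when any 1 of 2 was left out, and that of MVD without plate columns 1 and 10. IDI1 differed most in Th17n, at 33.5 ± 2.64 TPM in Total and 19.6 ± 2.80 in Div.1 cells with DMSO and 33.03 ± 3.57 and 23.3 ± 2.96 with methanol (log2 fold change -0.62, SE 0.0861, adjusted p = 1.42e-07). HMGCS1 followed (log2 fold change -0.45, adjusted p = 9.53e-06), and ACAT2 changed by -0.34. LSS was lower by 0.34 on the log2 scale, a call lost with the well A4 library in its labelled group (adjusted p = 0.097). In Th17p IDI1 (log2 fold change -0.36, adjusted p = 0.00162), ACAT2 (-0.27) and PMVK (-0.23) were lower in Div.1, as was ABCA1 (-0.37). ABCG1 (0.33), NR1H2 (0.29) and SREBF1 (0.16) were higher.

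The response itself was then compared between the sorts. With EGCG in Th17n cells 10 of 28 members changed more toward higher values in Div.1 than in Total cells and 1 the other way, against 10.8% and 2.53% of all genes. After rescaling the counts were 6 and 1. HMGCS1 (log2 difference 0.73, adjusted p = 0.000723) and IDI1 (log2 difference 0.72, adjusted p = 0.00246) had the largest differences, followed by HSD17B7 (0.49), whose call was lost when any 1 of 10 libraries was left out, most so without Th17n DMSO Div.1 replicate 1 (0.42, adjusted p = 0.136), and without the filter, after rescaling, in a fit of the groups alone, with the well A4 library in its labelled group and without plate columns 1 and 10 (adjusted p up to 0.194). That of HMGCS1 was lost with the well A4 library in its labelled group (adjusted p = 0.0829). The number of members called was 7 without Th17n DMSO Div.1 replicate 4 or without Th17n EGCG Total replicate 3, and 4 with the well A4 library in its labelled group. With DHEA the counts in Th17n were 7 and 1, against 5.12% and 1.68% of all genes, with IDI1 (0.54), LSS (0.51) and HMGCS1 (0.47) the largest. The call of IDI1 was lost when any 1 of 9 libraries was left out, most so without Th17n DHEA Div.1 replicate 10 (0.45, adjusted p = 0.112), and without the filter, after rescaling, in a fit of the groups alone, with the well A4 library in its labelled group and without plate columns 1 and 10 (adjusted p up to 0.136), that of LSS in a fit of the groups alone (adjusted p = 0.0505) and with the well A4 library in its labelled group (adjusted p = 0.0793), and that of HMGCS1 when any 1 of 11 libraries was left out, most so without Th17n Methanol Div.1 replicate 7 (0.36, adjusted p = 0.155), and without the filter, after rescaling, in a fit of the groups alone and with the well A4 library in its labelled group (adjusted p up to 0.146). The count fell to 4 without Th17n Methanol Div.1 replicate 6 or 7 or Th17n DHEA Div.1 replicate 10, and to 5 without Th17n Methanol Total replicate 8 or 10, Th17n DHEA Div.1 replicate 7 or Th17n DHEA Total replicate 9.

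In Th17p cells the responses of 1 and 1 members differed between the sorts toward higher and lower values with EGCG, against 1.35% and 1.22% of all genes, and those of 1 and 2 with DHEA, against 5.6% and 4.31%. Those with EGCG were ACAT2 (0.36) and NR1H2, and the call of ACAT2 was lost when any 1 of 15 libraries was left out, most so without Th17p EGCG Total replicate 3 (0.31, adjusted p = 0.118), and with a pseudocount of 0.1, without the filter, with the well A4 library in its labelled group and without plate columns 1 and 10 (adjusted p up to 0.11). Without any of 13 libraries in turn, 1 member was called with EGCG. Those with DHEA were ABCA1 (0.38), ABCG1 (-0.59) and NR1H2. The value of ABCA1 rests on its high methanol Total libraries and is a description only. Its call was lost when any 1 of 10 libraries was left out. It was also lost with a pseudocount of 0.1, in a fit of the groups alone, with the well A4 library in its labelled group and without plate columns 1 and 10. The call of ABCG1 was lost without Th17p Methanol Total replicate 7 (-0.50, adjusted p = 0.0524), and with the well A4 library in its labelled group (adjusted p = 0.0711). Without Th17p Methanol Total replicate 7 only 1 member was called with DHEA, and without Th17p DHEA Total replicate 10 there were 5.

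EGCG and DHEA were given at different doses and in different solvents, so the responses are set side by side, each against its own solvent and averaged over the sorts. In Th17p cells 12 of 28 members had a higher change with EGCG than with DHEA and 2 a lower one, against 33.7% and 12.9% of all genes, or 9 and 5 once rescaled, a step that shifted the all-gene median by -0.103. HSD17B7 changed by 0.09 (Total) and 0.32 (Div.1) with EGCG and by -0.50 and -0.18 with DHEA, a difference of 0.54 (adjusted p = 0.000125). ABCA1 (log2 difference 0.48) and CYP51 (log2 difference 0.47, adjusted p = 7.28e-09) also fell more, or rose less, with DHEA. LSS (0.45) and INSIG2 (0.44) had the same sign. FDPS (log2 difference -0.22, adjusted p = 0.00973) and LBR (log2 difference -0.24, adjusted p = 0.00013) were the members lower with EGCG than with DHEA. In Th17n cells the counts were 7 and 2, against 25% and 11.7% of all genes, or 4 and 2 after rescaling. LSS (log2 difference 0.43, adjusted p = 1.66e-05), CYP51 (log2 difference 0.33, adjusted p = 2.48e-05) and ABCA1 (log2 difference 0.33) were higher with EGCG, and MYLIP (log2 difference -0.40, adjusted p = 0.0211) and NR1H2 (-0.20) with DHEA. The call of LSS was lost with the well A4 library in its labelled group (adjusted p = 0.057), and that of MYLIP without plate columns 1 and 10 (adjusted p = 0.169).

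The counts of members called between the solvents were small in the main fit, not far from the shares of all genes, and moved with the processing. Methanol against DMSO gave 1 member higher and 0 lower in Th17p cells, against 8.44% and 5.14% of all genes, or 2 and 1 after rescaling. In Th17n cells it was 1 and 1, against 10.1% and 4.26%, or 1 and 5 after rescaling. The members were LSS in Th17p (0.17) and FDFT1 (0.21) and ACAT2 (log2 fold change -0.28, adjusted p = 7.67e-05) in Th17n. The call of LSS was lost when any 1 of 13 libraries was left out, most so without Th17p DMSO Div.1 replicate 3 (0.16, adjusted p = 0.0964), and without the filter, with the well A4 library in its labelled group and without plate columns 1 and 10 (adjusted p up to 0.24), and that of FDFT1 when any 1 of 4 libraries was left out, most so without Th17n DMSO Div.1 replicate 2 (0.19, adjusted p = 0.0775), and without the filter (adjusted p = 0.0503). In Th17p the count ran from 0 to 4 on leaving out 1 library: it was 0 without Methanol Div.1 replicate 9, DMSO Total replicate 3 or 5 or Methanol Total replicate 7, 4 without Methanol Total replicate 6, and 2 without Methanol Div.1 replicate 6, DMSO Total replicate 2 or 4 or Methanol Total replicate 10. In Th17n it was 1 without DMSO Div.1 replicate 2 or Methanol Div.1 replicate 9. DMSO libraries stood in plate columns 1 to 5 and methanol libraries in columns 6 to 10, so solvent and plate position cannot be told apart.

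Genes near the module were read from lists made by function, to be set against the shares of all genes given above for each comparison. The fatty acid and lipid genes that SREBP-1 is known to activate fell in Th17p cells: 1 of 13 rose and 12 fell with EGCG in Total cells, and 0 of 13 rose and 10 fell with DHEA. Their medians were -0.64 and -0.68. With DHEA the desaturase gene SCD1 changed by -3.51 and SCD2 by -1.76, and TMEM97, a sterol-responsive membrane protein, changed by -0.69 with EGCG and -0.68 with DHEA. In Th17n Total cells 1 of 13 rose and 4 fell with EGCG and 0 of 13 rose and 8 fell with DHEA. Genes of cholesterol storage and lysosomal release were then counted in Total cells, where 30.1% and 20.9% of all genes rose in Th17p with EGCG and DHEA, and 21.7% and 20.8% in Th17n. In Th17p, 5 of 7 rose and 0 fell with EGCG and 4 of 7 rose and 0 fell with DHEA, and in Th17n, 3 of 7 rose and 0 fell and 5 of 7 rose and 0 fell. LIPA, the lysosomal acid lipase, rose by 0.46 with EGCG and 0.31 with DHEA in Th17p, and NPC2, a lysosomal sterol carrier, by 0.89 with DHEA in Th17p and 1.09 in Th17n. Of the genes of SREBP processing and sterol sensing, 5 of 12 rose and 1 fell with EGCG in Th17p Total cells and 3 of 12 rose and 3 fell with DHEA. Against all genes (30.1% higher and 14.9% lower with EGCG, 20.9% and 26.8% with DHEA), the counts with DHEA were near the background. GRAMD1B, a sterol transporter at membrane contacts, rose by 1.03 and 0.51, and RNF145, a ligase of the sterol-sensing machinery, by 1.09 with DHEA. The isoprenoid branch, which uses the product of FDPS, gave counts near those shares: 3 of 12 rose and 0 fell with EGCG and 0 of 12 rose and 4 fell with DHEA in Th17p Total cells. Of the LXR partners and other LXR targets, 2 of 8 rose and 0 fell and 2 of 8 rose and 1 fell in those comparisons, again near those shares. PLTP, a phospholipid transfer protein, rose by 0.87 with EGCG and changed by -1.22 with DHEA in Th17n Total cells.

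Across the 8 compound comparisons the members were compared with the mean change of the 18 enzymes, by Pearson's r over 8 points that share 1 plate and in part the same cultures. This is a description of how the members vary together, and the enzymes contribute to the mean themselves. ACAT2 (r = 0.993), LSS (0.976) and MVD (0.948) followed it most closely, and LBR (0.515) and MVK (0.748) least among the enzymes. INSIG1 (0.904) lay near the enzymes, while ABCG1 (-0.874) and MYLIP (-0.795) had negative values. ABCG1 still fell in 7 of the 8 comparisons and rose in 0, so its negative r does not mean that it rose where the enzymes fell. Among 4169 expressed genes outside the module the highest values were those of BLM (0.992), SEL1L (0.988), GFM2 (0.965), PTGER4 (0.954), PJA2 (0.954) and NIPSNAP1 (0.953), and the lowest those of PTMS (-0.991), DTNB (-0.967), B4GALNT1 (-0.965) and SERPINB9 (-0.948).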

How the data were processed

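Poly(A) RNA of 79 CFSE-labelled Th17 cultures or sorted fractions was sequenced. The authors deposited 1 table of TPM per gene, made with Trimmomatic and kallisto against mm10 (per the submitters' processing notes, without versions there). Depth is unknown, and precision rests on the 4 or 5 libraries of a group. The well A4 library was left out because its label departs from its row of the plate. Genes at 1 TPM or more in at least 4 of 78 libraries were kept (10672 of 20465). log2(TPM + 1) was fitted with limma 3.58.1 (R 4.3.3) by group, with a trended prior on the spread. Tests were two-sided with Benjamini-Hochberg adjustment over all kept genes. The fit was run on simulated data with independent noise and a small share of shifted genes. That run cannot check the fit where libraries of a plate column vary together or many genes change. Because log2(TPM + 1) is used, changes of low genes are understated. Groups came from the labels. The members, the other gene lists and the tests were chosen with earlier results of these data known. Named first were the called members with the largest change each way, up to 4, or 3 for differences between responses or solvents. Others were added beside them after their values were seen. Promoters came from RefSeq and gene positions from GENCODE on mm10. Alternatives were another pseudocount, no filter, rescaling by median ratios, fits of the groups alone, a replicate block, well A4 as labelled, leaving out each library, and leaving out the edge columns. CD68 and ADGRE1 of the myeloid list were not analysed here.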

Additional observations from a re-analysis of the deposited data

Results flagged for a closer look

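In groups of 4 or 5 libraries, a highest or lowest library that stood apart by Dixon's 95% criterion was found in 17 of 448 sets of a member and a group, where chance gives about 1 in 20, or 22.4 sets. Replicate 10 of the DHEA cultures was high in several members. ACAT2 in Th17n DHEA Div.1 replicate 10 was at 92.4 TPM, above the other libraries of its group at 77.6 to 81.7. MVK in Th17n DHEA Total replicate 10 was at 18.2 TPM, above the other libraries of its group at 15.3 to 15.99. FDPS in Th17n DHEA Div.1 replicate 10 was at 315 TPM, above the other libraries of its group at 276 to 285. NSDHL in Th17p DHEA Total replicate 10 was at 29.7 TPM, above the other libraries of its group at 24.04 to 25.5. INSIG1 in Th17p DHEA Total replicate 10 was at 81.3 TPM, above the other libraries of its group at 66.2 to 69.2. INSIG2 in Th17n DHEA Div.1 replicate 10 was at 21.2 TPM, above the other libraries of its group at 17.1 to 17.7. In Th17n EGCG Total the high libraries were replicates 4 and 5. ACAT2 in Th17n EGCG Total replicate 4 was at 138 TPM, above the other libraries of its group at 109 to 117. INSIG1 in Th17n EGCG Total replicate 4 was at 101 TPM, above the other libraries of its group at 79.97 to 84.4. INSIG2 in Th17n EGCG Total replicate 5 was at 22.1 TPM, above the other libraries of its group at 17.5 to 18.6. The others were scattered. PMVK in Th17p DHEA Total replicate 6 was at 72.4 TPM, above the other libraries of its group at 65.2 to 67.1. PMVK in Th17n DMSO Total replicate 1 was at 66.1 TPM, below the other libraries of its group at 76.9 to 81.1. MVD in Th17n Methanol Div.1 replicate 7 was at 36.6 TPM, below the other libraries of its group at 47.6 to 50.6. LSS in Th17p EGCG Total replicate 4 was at 62.3 TPM, above the other libraries of its group at 51.5 to 54.3. HSD17B7 in Th17n DHEA Total replicate 9 was at 4.70 TPM, below the other libraries of its group at 6.59 to 7.03. EBP in Th17p Methanol Div.1 replicate 6 was at 67.9 TPM, below the other libraries of its group at 73.01 to 74.8. DHCR7 in Th17n DMSO Div.1 replicate 4 was at 13.2 TPM, below the other libraries of its group at 14.9 to 15.2. MYLIP in Th17p DMSO Div.1 replicate 2 was at 0.731 TPM, below the other libraries of its group at 1.44 to 1.55.

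The response differed between the cell types, by the test of the difference itself in limma, for 14 of 28 members with EGCG in Total cells, with the largest log2 differences in PMVK (-0.63), MVD (-0.62) and FDPS (-0.61). In Div.1 cells it differed for 14, led by HMGCS1 (-0.85), FDPS (-0.79) and LSS (-0.78). With DHEA it differed for 12 members in Total cells, led by DHCR7 (-0.66), NSDHL (-0.66), ABCG1 (0.54) and SCAP (0.24), and for 18 in Div.1 cells, led by MVD (-0.83), LSS (-0.83) and NSDHL (-0.81). The 12 in Total cells include ABCA1 (-0.74), whose difference is a description only, because it was tested only through its high solvent libraries. The response differed between the sorts (Div.1 minus Total) for 11 members with EGCG in Th17n cells, led by NR1H2 (-0.40), HMGCS1 (0.73), IDI1 (0.72) and HSD17B7 (0.49), and for 2 in Th17p cells, NR1H2 (-0.43) and ACAT2 (0.36). With DHEA it differed for 8 members in Th17n cells, led by NR1H2 (-0.23), IDI1 (0.54), LSS (0.51) and HMGCS1 (0.47), and for 3 in Th17p cells, ABCG1 (-0.59), NR1H2 (-0.40) and ABCA1 (0.38). The value of ABCA1 is again a description only. Adjusted p-values not given above were 0.0452 for HSD17B7 with EGCG in Th17n, 0.00407 for LSS with DHEA in Th17n, 0.0492 for ACAT2 with EGCG in Th17p and 0.0163 for ABCG1 with DHEA in Th17p. Some members counted but not named here were also lost without 1 library, among them FDFT1, SREBF1 and TM7SF2 for EGCG between the cell types in Total cells, NR1H2 and TM7SF2 for DHEA in Div.1 cells, and SQLE and CYP51 for EGCG between the sorts in Th17n.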

How the results depend on the processing

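Of 306 called results of single members, 302 stayed called with a pseudocount of 0.1, 278 without the filter on low values, 278 after rescaling by the median ratio, 269 in fits of the compared groups alone, 269 with the well A4 library in its labelled group and 270 without plate columns 1 and 10, an alternative chosen after seeing the data. On leaving out each library in turn 245 stayed called throughout, and none of the 306 reversed under any of these. The count of members called moved by more than 1.5 times in these cases. For DHEA in Th17n Div.1 cells it was 7 in place of 12 in the groups alone. For the EGCG response in Div.1 minus Total in Th17p it was 1 in place of 2 with a pseudocount of 0.1, without the filter and with well A4, and 1 to 2 on leaving out 1 library. For the same difference in Th17n it was 7 in place of 11 after rescaling and 4 with well A4, and 7 to 12 on leaving out 1 library. For the DHEA response in Th17p it was 1 in place of 3 with well A4, and 1 to 5 on leaving out 1 library. For that in Th17n it was 5 in place of 8 without the filter and after rescaling, 2 in the groups alone and 4 with well A4, and 4 to 8 on leaving out 1 library. For methanol against DMSO in Th17p it was 0 in place of 1 without the filter and with well A4, 3 after rescaling and in the groups alone and 2 without columns 1 and 10, and 0 to 4 on leaving out 1 library. In Th17n it was 1 in place of 2 without the filter, 6 after rescaling and with well A4 and 8 without columns 1 and 10, and 1 to 3 on leaving out 1 library. The cause was not tested. A fit with the plate column as a replicate block kept all 303 called results it could give, and called 14 in place of 9 members for EGCG minus DHEA in Th17n. Libraries of the same column correlated at -0.0016 to 0.315 in their deviations from the group means. The mean r of the same column was positive in every pair of groups, at 0.0457 to 0.166, and that of other columns negative. In 13 of 24 pairs of groups every library correlated best with its own column. Because not all correlations were above 0.1, the main fits did not pair the columns. They thus leave out variation that the libraries of a column share, which the block fit takes in. The block could not be fitted for methanol against DMSO, which share no column. TPM keep no read counts, so no counting error can be given for low levels such as those of ABCA1 and MYLIP.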

Other observations

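The library of well A4 entered no main comparison. Most members of the module stood there inside the range of the Th17p DMSO Div.1 libraries. Fewer stood inside that of the Th17n ones, and some in both or in neither. Calls lost with this library in its labelled group therefore depend on that label. The library held HMGCS1 at 106 TPM, where the Th17p DMSO Div.1 libraries ran from 108 to 129.6 and the Th17n ones from 33.1 to 55.6. LSS was at 87.3 TPM, where the Th17p DMSO Div.1 libraries ran from 71.8 to 85.5 and the Th17n ones from 30.3 to 39.7. ABCG1 was at 6.42 TPM, where the Th17p DMSO Div.1 libraries ran from 4.77 to 6.57 and the Th17n ones from 13.8 to 20.3, and FDPS at 503 TPM, where the Th17p DMSO Div.1 libraries ran from 429.6 to 484 and the Th17n ones from 321 to 378. SREBF2 was at 26.6 TPM, where the Th17p DMSO Div.1 libraries ran from 31.4 to 45.6 and the Th17n ones from 24.4 to 31.5, and MVK at 19.8 TPM, where the Th17p DMSO Div.1 libraries ran from 21.3 to 23.1 and the Th17n ones from 16.2 to 19.98.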
